A study of Mus musculus with 6 samples.

Results

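Genes of interferon signalling, of the interferon response and of antigen presentation were followed as a module of 46 genes chosen by symbol. A probe of the array could be named for 35 of them through its RefSeq accession, among 10634 genes named in all, and each of the 35 had 1 probe. No probe was named for Oas1g, Oas2, Mx1, Mx2, Ifi27, Ifi35, Ifi203, Ifi205, Bst2, Ifih1 or Trim25, so their RNA levels were not analysed here. RNA came from mouse embryo fibroblasts (MEFs) of a mixed 129/svev × C57Bl/6 background. In both groups the cells had become immortal spontaneously under the 3T3 passage protocol and carried stably transduced H-RasG12V, an activated form of the Ras oncogene. The KO group lacked p38α, a stress-activated protein kinase (genotype p38α-/-), and the WT group was wild type, with 3 cultures in each, grown for 72 h and collected at 70 to 90% confluence. The study asked how transcription takes part in tumour suppression by p38α. The labels name no interferon, virus or other stimulus. They call the cultures biological replicates without saying whether they were separately derived lines. The p-values thus set a difference only against the spread between these cultures, which limma moderates over all probes.

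Interferons are secreted proteins, and cells release those of type I on sensing foreign nucleic acid. Type I interferons bind the receptor of Ifnar1 and Ifnar2, and interferon gamma that of Ifngr1 and Ifngr2. The kinases Jak1 and Tyk2 then activate Stat proteins, which bind the interferon-stimulated response element (ISRE), together with Irf9, or the gamma-activated sequence (GAS) in promoters. The induced genes block viral entry, replication and translation and raise the display of peptides on MHC class I molecules.

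The promoters of 7 members are shown: the adjacent Ifitm genes, Ifit3 and the nearby Ifit1, Irf1, and Isg15. Isg15 is a typical interferon-induced gene that was near background here. Whether motifs in these promoters have a part in the differences was not tested. Each window runs from 250 bases before to 50 bases after the RefSeq start site, which is base 1, in build GRCm38.p6, and is written 5′ to 3′ on the strand of the gene. The windows were chr7:140967826-140968125 (plus strand) for Ifitm1, chr7:140955912-140956211 (minus) for Ifitm2, chr7:141010695-141010994 (minus) for Ifitm3, chr19:34583279-34583578 (plus) for Ifit3, chr19:34640639-34640938 (plus) for Ifit1, chr11:53769764-53770063 (plus) for the first of the Irf1 windows and chr4:156200769-156201068 (minus) for Isg15. Capitals mark the ISRE core, which is GAAA, any 2 bases and GAAA on either strand, and GAS, which is TTC, any 3 bases and GAA.
Ifitm1: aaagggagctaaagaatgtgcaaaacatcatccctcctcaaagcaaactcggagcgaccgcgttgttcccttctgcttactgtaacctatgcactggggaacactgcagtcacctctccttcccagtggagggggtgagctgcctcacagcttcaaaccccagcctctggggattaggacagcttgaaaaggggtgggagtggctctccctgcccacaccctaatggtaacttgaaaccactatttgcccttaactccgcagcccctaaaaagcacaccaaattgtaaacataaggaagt
Ifitm2: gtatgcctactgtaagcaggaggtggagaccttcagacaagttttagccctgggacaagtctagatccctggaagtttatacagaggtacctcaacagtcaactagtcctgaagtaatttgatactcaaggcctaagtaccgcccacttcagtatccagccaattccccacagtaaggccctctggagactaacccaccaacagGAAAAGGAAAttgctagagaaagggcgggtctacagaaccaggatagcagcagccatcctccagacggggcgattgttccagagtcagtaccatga
Ifitm3: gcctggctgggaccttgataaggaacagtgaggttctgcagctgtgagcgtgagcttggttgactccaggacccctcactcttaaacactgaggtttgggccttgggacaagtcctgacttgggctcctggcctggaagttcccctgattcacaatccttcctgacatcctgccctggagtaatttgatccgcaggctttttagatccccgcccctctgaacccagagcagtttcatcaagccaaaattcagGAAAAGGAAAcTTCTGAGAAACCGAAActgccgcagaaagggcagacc
Ifit3: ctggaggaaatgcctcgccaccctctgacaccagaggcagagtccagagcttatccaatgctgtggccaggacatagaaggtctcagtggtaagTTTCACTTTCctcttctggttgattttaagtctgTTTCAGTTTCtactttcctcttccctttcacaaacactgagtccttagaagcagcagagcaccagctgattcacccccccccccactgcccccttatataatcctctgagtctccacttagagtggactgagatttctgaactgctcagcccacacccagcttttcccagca
Ifit1: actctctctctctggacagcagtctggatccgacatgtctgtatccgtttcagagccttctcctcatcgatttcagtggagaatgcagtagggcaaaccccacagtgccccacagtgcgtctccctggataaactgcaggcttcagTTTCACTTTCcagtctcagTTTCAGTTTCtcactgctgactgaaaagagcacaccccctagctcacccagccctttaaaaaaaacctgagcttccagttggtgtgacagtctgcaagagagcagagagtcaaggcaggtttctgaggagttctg
Irf1: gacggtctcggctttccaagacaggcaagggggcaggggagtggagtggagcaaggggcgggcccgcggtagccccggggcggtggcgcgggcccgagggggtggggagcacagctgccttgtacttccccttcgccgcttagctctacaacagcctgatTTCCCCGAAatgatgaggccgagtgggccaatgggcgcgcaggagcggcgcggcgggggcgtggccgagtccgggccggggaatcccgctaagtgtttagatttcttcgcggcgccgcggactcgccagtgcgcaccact
Isg15: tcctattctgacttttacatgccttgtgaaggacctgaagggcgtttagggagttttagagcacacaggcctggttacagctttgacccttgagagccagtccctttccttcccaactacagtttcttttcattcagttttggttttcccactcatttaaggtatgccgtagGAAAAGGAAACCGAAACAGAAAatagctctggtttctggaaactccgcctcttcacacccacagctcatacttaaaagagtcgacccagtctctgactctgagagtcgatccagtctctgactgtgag

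These windows differ in where the letters lie. The Ifitm2 match began at base -46. Ifitm3 held an ISRE core at bases 3 and 20 and a GAS at base 14, the latter overlapping the second core. Ifit3 held cores at -156 and -122 and Ifit1 at -104 and -85, all read on the opposite strand. Isg15 held 3 overlapping cores starting at -78, -72 and -66, Irf1 a GAS at -90, and the Ifitm1 window neither motif. Over the table, 3.99% of 27025 genes had an ISRE core and 9.55% a GAS in such a window. Of the 39 members with a window, 17 (43.6%) had the core and 12 (30.8%) the GAS. These 39 include members without a named probe, and of the 32 measured members with a window 12 (37.5%) had the core. A match describes the letters and does not show a bound factor.

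A CodeLink 20K array, a glass slide of oligonucleotide probes, was read for each culture, so precision rests on 3 arrays a group. The scanner software marked 8677 to 10232 of the 19801 gene probes as above background, and 12 to 17 of the 35 members. KO replicate 3 had the fewest of both and KO replicate 1 the most. Median background-subtracted intensities of all gene probes were 18.8 to 21.7 on KO and 15.9 to 17.5 on WT arrays, a gap that quantile normalization removes, so such intensities can be higher in KO where normalized signals are not. Mapk14, which encodes p38α, had background-subtracted intensities of 17.6, 18.6 and 8.35 in KO replicates 1, 2 and 3 and of 60.8, 70.6 and 68.8 in WT. All KO values lay below all WT values, and the normalized log2 difference, KO minus WT, was -0.94 (SE 0.07, limma adjusted p = 7.84e-05), or -2.24 with offset 0. Whether the probe matches the deleted exons is unknown from the labels. The names inside the files of KO replicates 2 and 3 are exchanged against their titles. Titles are followed here, and the groups are the same either way.

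Among fibroblast markers, vimentin (Vim), the PDGF receptor Pdgfrb, Dcn and Col1a2 were above background on all 6 arrays, and Thy1 and Lum near background. Of 6 measured, Vim was higher in KO (0.83 in log2 units, adjusted p = 0.000882) and Pdgfrb (-0.56, 0.0012) and Dcn were lower, the calls of Vim and Pdgfrb being lost with the authors' normalized values (0.0643 and 0.061). The pan-leukocyte gene Ptprc was near background on every array, as were 7 of 9 leukocyte and all 4 endothelial markers measured. No leukocyte marker passed limma's adjusted threshold (1 at an unadjusted p under 0.05), and Cd14, above background on all arrays, came nearest (log2 difference 0.32, adjusted p = 0.0751). Cd14 did pass with array weights (0.0229), with the replicate number as a block by titles (0.0271) or by the names inside the files (0.0255), and without KO replicate 3 (0.0281) or WT replicate 1 (0.0101). Its intensities, 1425 to 1898 in KO and 916 to 1291 in WT, made up most of the summed leukocyte intensities of 1460 to 1950 and 954 to 1330. The mean normalized log2 signal of the leukocyte list overlapped, at 6.39 to 6.45 in KO and 6.37 to 6.43 in WT. Of 5 epithelial markers the keratins Krt18 and Krt19 were higher in KO and Krt8, Cdh1 and Epcam near background, with summed intensities of 2280 to 3350 in KO and 25.9 to 41.1 in WT. Krt19 alone, at 2173 to 3195, made up most of the KO sums. The limma log2 differences were 4.995 for Krt19 (adjusted p = 4.88e-08) and 1.47 for Krt18 (1.15e-05). Tcf4, 1 of 2 plasmacytoid dendritic cell markers measured, was lower in KO (-0.72, adjusted p = 0.000347), and the other was the member Irf7. The part of these markers in the results below was not tested, and in such bulk RNA fewer cells of a type and less RNA per cell cannot be told apart.

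Of the 35 measured members, 6 were higher and 5 lower in KO at an adjusted p under 0.05, the threshold used throughout, and 24 did not pass. The lower members numbered 3 under median scaling and 3 with the authors' normalized values. The adjustment runs over all 19604 probes tested, of which 22.6% passed. The 11 called members are 31.4% of those measured, near the 26.1% of all 10558 named genes tested. By direction, 13.1% of named genes were higher and 13.0% lower. For 14 members, 7 above and 7 below, the KO and WT ranges were separate, as they were for 39.6% of all named genes. The median log2 difference was -0.0086 over the members and -0.0048 over all named genes.

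**Figure D1:**
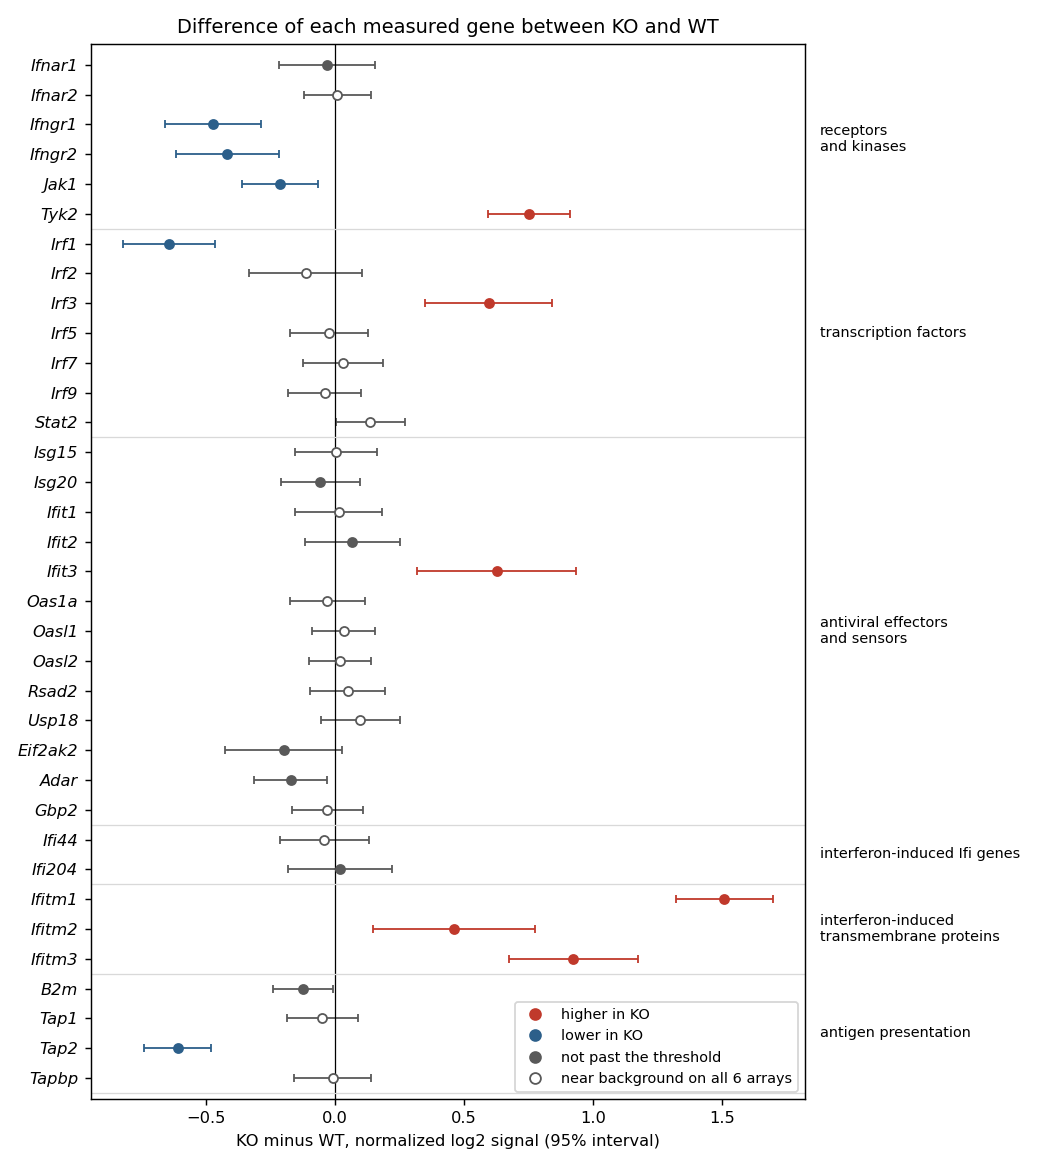
Difference between KO and WT of each of the 35 measured genes in normalized log2 signal, ordered by role, with 95% intervals from limma; filled points are above background on at least 1 array and open points near background on all 6. All 3 Ifitm genes lie to the right of 0, Irf1, Tap2, Ifngr1, Ifngr2 and Jak1 to the left, and the open points lie between -0.11 and 0.14.

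The interferon-induced transmembrane proteins, small membrane proteins that hinder the entry of enveloped viruses into cells, were higher in KO for all 3 genes listed. Of all named genes, 13.1% were higher. Ifitm1 had background-subtracted intensities of 196, 200.2 and 201 in KO replicates 1, 2 and 3, against 21.0, 31.4 and 23.3 in WT. Every KO array thus lay several times above every WT array, and all 6 were above background. Normalized log2 signals of Ifitm1 averaged 7.87 ± 0.13 over the KO arrays and 6.36 ± 0.09 over the WT arrays (SD, n = 3). That is 1.51 higher (SE 0.08, adjusted p = 9.71e-06), or 2.85-fold. The offset of 50 added to every signal pulls differences of dim probes toward 0, and with offset 0 the difference was 2.53.

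Ifitm3, the member best known for restricting influenza virus, had intensities of 10010, 11280 and 11520 in KO and 4749, 5319 and 5055 in WT. The groups were far apart, with a log2 difference of 0.92 (SE 0.11, adjusted p = 0.000578), which is 1.90-fold. Ifitm2 had intensities of 4073, 4353 and 4901 in KO and 2396, 2949 and 2727 in WT, again without overlap. Its log2 difference was 0.46 (SE 0.13, adjusted p = 0.0447), or 1.38-fold, and the call was lost under 8 of 19 other settings, among them offset 0 (adjusted p = 0.161), the authors' normalized values (0.198) and leaving out KO replicate 2 (0.0552) or WT replicate 1, 2 or 3 (0.164, 0.112 and 0.101). The 3 genes are related in sequence, and whether their probes also detect each other's RNA was not tested.

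The Ifitm genes are neighbours on chromosome 7, in the order Ifitm2, Ifitm1 and Ifitm3. No probe was named for Ifitm5 and Ifitm6 on either side. Of the next genes outward, Pgghg, above background on all arrays, differed by 0.14 (adjusted p = 0.187) and Nlrp6, near background, by -0.04 (0.796), while Pkp3, a desmosome protein beyond the other end, was lower (-0.27, adjusted p = 0.018) and above background on 1 WT array only.

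Of 6 receptor and kinase genes, 1 was higher and 3 were lower in KO, where 13.1% and 13.0% of all named genes were, and 1 of the 3, Jak1, lost its call under most other settings. Both chains of the interferon gamma receptor were lower in KO, while neither chain of the type I receptor passed. Ifngr1, the ligand-binding chain, had intensities of 26.3, 12.8 and 11.2 in KO and 38.4, 35.1 and 37.9 in WT. It was above background on 1 KO and all 3 WT arrays, and its log2 difference was -0.47 (SE 0.08, adjusted p = 0.00393), or -1.32 with offset 0. Ifngr2, the accessory chain, had intensities of 60.2, 63.3 and 39.3 in KO and 68.2, 71.6 and 83.6 in WT. These did not overlap, and the log2 difference was -0.42 (SE 0.09, adjusted p = 0.00975). The Ifngr2 call was lost under median scaling (-0.33, adjusted p = 0.0604) and with the authors' normalized values (-0.76, 0.0781).

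The type I receptor chain Ifnar1 had intensities of 292, 262 and 191 in KO and 206, 222 and 181 in WT. The groups overlapped, with a log2 difference of -0.03 and a 95% interval of -0.22 to 0.16 (adjusted p = 0.87). Ifnar2 was near background on all arrays. On chromosome 16 the receptor genes follow each other as Ifnar2, Il10rb, Ifnar1 and Ifngr2, and of these Ifngr2 alone was called. Il10rb, a chain of the interleukin-10 and interferon lambda receptors, differed by -0.13 (adjusted p = 0.551).

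The receptor-bound kinases differed in opposite directions. Tyk2, which serves Ifnar1, had intensities of 318, 317 and 308 in KO and 126, 141 and 127 in WT. It was thus higher on each KO array than on any WT array, by 0.75 on the log2 scale (SE 0.07, adjusted p = 0.000149), which is 1.69-fold. Jak1, which serves both receptor types, had intensities of 794, 851 and 651 in KO and 707, 708 and 718 in WT. These background-subtracted values were higher than any in WT on 2 KO arrays and lower on the third, whereas the quantile-normalized log2 signals were 9.52 ± 0.04 in KO and 9.74 ± 0.09 in WT (SD, n = 3). The normalized difference of -0.21 (SE 0.06) passed narrowly (adjusted p = 0.0491). It lost the call under 15 of 19 other settings, and under median scaling, without quantile normalization, it was -0.0087 (adjusted p = 0.971).

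**Figure D2:**
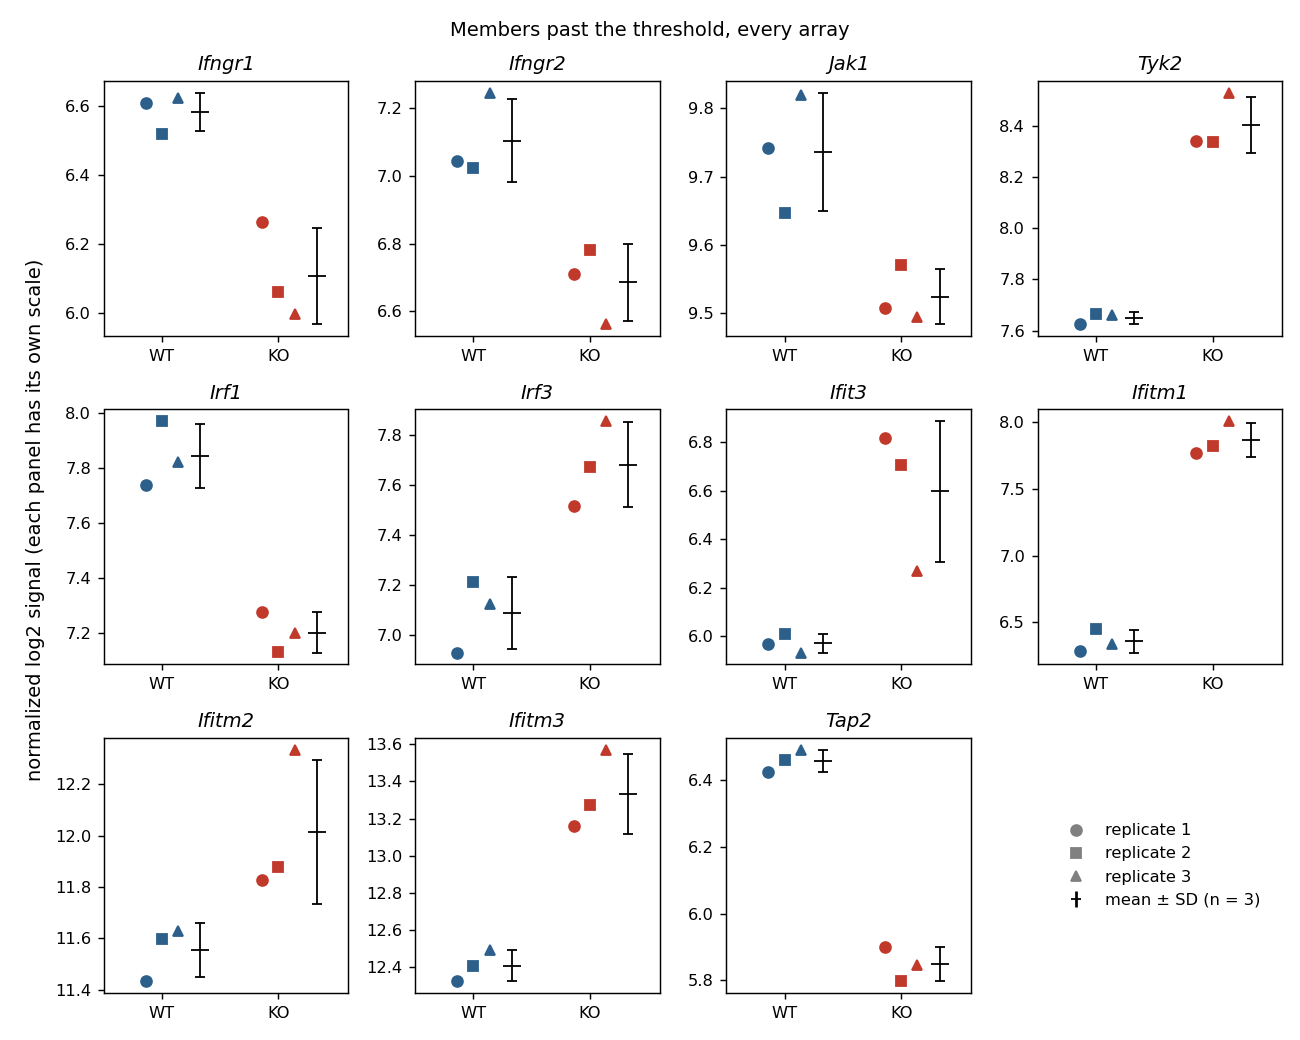
Normalized log2 signal on every array of the 11 members past the threshold, with replicates 1, 2 and 3 as circles, squares and triangles and bars at the mean ± SD (n = 3); each panel has its own scale. KO and WT do not overlap in any panel, and Ifit3 has the widest spread among KO arrays (SD 0.29).

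Of 7 measured transcription factors, 1 was higher, 1 lower and 5 were near background on all arrays. The called share was 28.6%, near the 26.1% of all named genes. Irf1, which activates genes of antigen processing after interferon gamma, had intensities of 118, 97.8 and 91.5 in KO and 139.6, 186 and 146 in WT. Every KO value lay below every WT value, and the log2 difference was -0.64 (SE 0.08, adjusted p = 0.000605), or 1.56-fold lower. Irf3, a latent factor switched on by sensors of nucleic acid, had intensities of 153, 174 and 175 in KO and 59.2, 89.3 and 72.2 in WT. It was higher in KO by 0.60 on the log2 scale (SE 0.11, adjusted p = 0.00514), or 1.51-fold, and by 0.93 with the authors' normalized values. The calls of Irf1 and Irf3 held under all 19 other settings.

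The factors near background were Irf2, Irf5, Irf7, Irf9 and Stat2. Irf7 amplifies the production of interferon alpha, and Irf9 and Stat2 form the complex that reads the ISRE. Stat2 was the only one of these without overlap between groups, with intensities of 15.4, 16.0 and 18.3 in KO and 9.12, 10.4 and 5.80 in WT. Its log2 difference of 0.14 did not pass (SE 0.06, adjusted p = 0.154).

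Antiviral effectors, the largest role with 13 of 20 genes measured, gave 1 call (7.69%, against 26.1% of all named genes). Of the 13, 8 were near background on all arrays. Ifit3, whose human counterpart binds IFIT1 and strengthens its hold on viral RNA, had intensities of 69.3, 57.01 and 22.2 in KO and 7.36, 9.67 and 5.92 in WT. KO replicates 1 and 2 were above background, KO replicate 3 was nearer to WT, and no WT array was above background. Ifit3 was at least 1.32-fold higher in KO, with a fitted log2 difference of 0.63 (SE 0.13, adjusted p = 0.0112) that grew to 1.86 with offset 0. Without WT replicate 3 the call was lost (adjusted p = 0.0543).

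The other 2 Ifit members, near it on chromosome 19, gave no call. Ifit1bl1, Ifit3b and Ifit1bl2, which lie between Ifit3 and Ifit1, had no named probe. Ifit2 had intensities of 28.8, 14.5 and 13.7 in KO and 14.8, 13.0 and 8.63 in WT, above background on 1 KO array, and a log2 difference of 0.07 (adjusted p = 0.68). Ifit1 was near background on all arrays, at 3.06, 7.74 and 10.4 in KO and 4.37, 10.1 and 2.39 in WT. The differences between these Ifit genes were not themselves tested. Whether the Ifit3 probe also detects its close relative Ifit3b, for which no probe was named, was not tested.

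Among the other antiviral genes, Isg20, an RNA exonuclease, had intensities of 441, 509 and 399.1 in KO and 388, 390.2 and 341 in WT. All KO values lay above all WT values on this scale, but the normalized signals overlapped, and the log2 difference was -0.06 with a 95% interval of -0.21 to 0.10 (adjusted p = 0.668). Adar, which edits adenosine to inosine in double-stranded RNA, had intensities of 18.1, 19.6 and 19.0 in KO and 19.5, 27.9 and 25.4 in WT. Its normalized signals did not overlap, but the difference of -0.17 (SE 0.06) did not pass (adjusted p = 0.0919). Adar passed without background correction (-0.24, adjusted p = 0.0352) and with array weights (-0.18, 0.0391). Eif2ak2, the kinase PKR that halts translation on sensing double-stranded RNA, was above background on 1 KO and 2 WT arrays and differed by -0.20 (adjusted p = 0.228).

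The remaining 8 antiviral genes were near background on all arrays: Isg15, a ubiquitin-like modifier, Usp18, which removes it, Ifit1, Oas1a, Oasl1, Oasl2, Rsad2 and the GTPase gene Gbp2. Isg15 intensities were 9.73, 15.7 and 7.67 in KO and 11.3, 7.18 and 8.81 in WT, which overlapped. Of the 2 Ifi genes measured, Ifi204, a p200-family DNA-binding protein, was above background on all arrays, with intensities of 59.9, 36.6 and 34.1 in KO and 39.7, 31.5 and 31.2 in WT. The Ifi204 log2 difference was 0.02 with a 95% interval of -0.18 to 0.22 (adjusted p = 0.924). Ifi44 was near background.

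**Figure D3:**
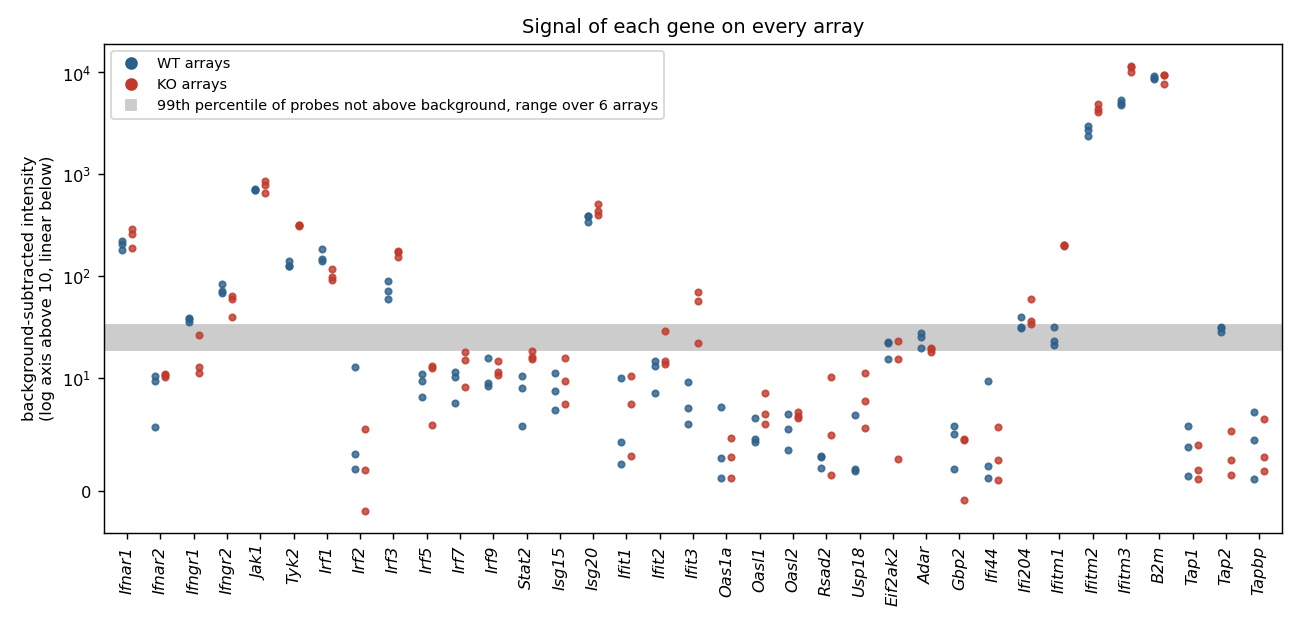
Background-subtracted intensity of each of the 35 measured genes on every array, in scanner units on an axis that is logarithmic above 10 and linear below; the grey band is the range over arrays, 18.7 to 32.8, of the 99th percentile of probes not marked above background. Levels of different probes are not comparable, and 17 genes, from Ifnar2 to Tapbp, lie below the band on all 6 arrays.

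In all, 17 of the 35 members (48.6%) were near background on all 6 arrays, against 38.4% of all named genes. Their intensities ran from -1.76 to 18.3, their log2 differences from -0.11 to 0.14, and none passed limma's adjusted threshold (lowest adjusted p 0.154, 1 at an unadjusted p under 0.05). At such levels a missing call does not show that a gene was unchanged. Of the 16 near-background members with a promoter window, 7 had the ISRE core, and so had 3 of 6 members called higher (Ifitm2, Ifitm3 and Ifit3). None of the 4 called lower with a window had it. Of the 22 uncalled members with a window, which include those near background, 9 (40.9%) had the core and 8 (36.4%) a GAS. A GAS was held by 1 member called higher, Ifitm3, and 1 called lower, Irf1. Whether the core goes with the direction of a difference was not tested. No window was at hand for Tap2.

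Antigen presentation had 1 call among 4 genes (25%, near the 26.1% of all named genes). Tap2, a subunit of the transporter that brings peptides into the endoplasmic reticulum, had intensities of 5.33, 1.39 and 2.76 in KO and 28.6, 32.0 and 30.9 in WT. It was above background on every WT array and on no KO array. Tap2 was at least 1.24-fold lower in KO, with a fitted log2 difference of -0.61 (SE 0.06, adjusted p = 0.000156) that was -2.38 with offset 0 and -3.55 with the authors' normalized values. Its partner Tap1 and the loading factor Tapbp (tapasin) were near background on all arrays. On chromosome 17, which also carries Mapk14, the order is Tap1, Psmb8 and Tap2. Psmb8, an immunoproteasome subunit, was also near background on all arrays and differed by -0.03 (adjusted p = 0.818).

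B2m, the light chain of MHC class I molecules, had intensities of 9451, 9551 and 7779 in KO and 8751, 9186 and 8573 in WT. These overlapped, but the normalized log2 signals, 13.07 ± 0.01 in KO and 13.20 ± 0.02 in WT (SD, n = 3), did not. The difference of -0.12 had a 95% interval of -0.24 to -0.0081 and did not pass (adjusted p = 0.134). Its SE of 0.05 was larger than these SDs, as limma moderates the variance of each probe over all probes.

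Other genes of the pathway, 97 listed by symbol and none a member, were read in the same fit. Of 62 measured, 8 were higher and 9 lower in KO, 45 did not pass, and 27 were near background on all arrays. The 17 called are 27.4% of those measured, near the 26.1% of all named genes. Ifnb1, the gene of interferon beta, was among the 27 near background on all arrays and is named after its values were seen. The lower genes numbered only 4 under median scaling, with offset 0 or with the authors' normalized values, 5 without WT replicate 1 and 4 without WT replicate 3.

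Among interferon-induced genes of this list, Ly6e, a surface protein anchored by a lipid, had intensities of 2800, 2676 and 2145 in KO and 384.9, 501 and 476 in WT. It was 4.13-fold higher in KO (log2 difference 2.05, SE 0.09, adjusted p = 4.03e-06). Lgals3bp, a secreted binding partner of galectins, had intensities of 513, 458 and 533 in KO and 115, 133 and 118 in WT, and was higher by 1.40 (SE 0.11, adjusted p = 5.93e-05). Both genes were thus far above WT on every KO array. Pml, which builds nuclear bodies, was lower, with intensities of 437, 510.2 and 501 in KO against 771, 788 and 757 in WT and a log2 difference of -0.93 (SE 0.10, adjusted p = 0.000432). Other interferon-induced genes above background on all arrays did not pass, among them Irgm1 (-0.08, adjusted p = 0.524), Ifi47 (-0.06, 0.644) and Oas3 (0.27, 0.1).

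Called genes of MHC class I and its peptide supply went in both directions. Others did not pass, among them Psme1 (-0.02, adjusted p = 0.952) and Canx (0.11, 0.777), both above background on all arrays. No probe was named for the heavy chain genes H2-K1 and H2-D1. H2-T23, a nonclassical class I heavy chain (Qa-1), had intensities of 197, 237 and 207 in KO and 17.1, 23.5 and 12.7 in WT, where it was near background. It was at least 3.25-fold higher in KO (fitted log2 difference 1.74, SE 0.09, adjusted p = 7.03e-06; 3.06 with offset 0). H2-M3, a nonclassical heavy chain that presents N-formylated peptides, went the other way, at 7.96, 9.62 and 8.39 in KO, near background, and 71.6, 75.1 and 66.7 in WT. It was at least 1.88-fold lower (fitted log2 difference -1.10, SE 0.05, adjusted p = 4.8e-06; -2.76 with offset 0). Heavy chain genes are related in sequence, and whether a probe detects more than 1 of them was not tested. H2-T23, H2-M3 and the member Tap2 lie on chromosome 17, as does the deleted gene Mapk14. The uncalled members Tap1 and Tapbp lie there too. In cells of mixed strain background, whether strain sequence linked to Mapk14 has a part in these differences was not tested.

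Psmb10, an immunoproteasome subunit, had intensities of 517, 510.2 and 334 in KO and 858, 1019 and 846 in WT, and was lower, with a log2 difference of -1.24 (SE 0.09, adjusted p = 5.1e-05). The lysosomal thiol reductase Ifi30 differed by -0.49 (adjusted p = 0.0128), and its call was lost under median scaling (0.122), with offset 0 (0.0669), with the authors' normalized values (0.114) and without WT replicate 3 (0.0529). The peptide-loading chaperones Pdia3 (0.58, adjusted p = 0.00415) and Calr (0.38, 0.00674) were higher, each call lost with offset 0 (0.0546 and 0.0907) and with the authors' normalized values (0.0735 and 0.086), and that of Calr also with the spot median (0.0928). Tapbpl, a relative of tapasin, was at least 1.32-fold higher (fitted log2 difference 0.43, adjusted p = 0.00565; up to 1.29 under other settings) and near background in WT.

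Among regulators, Pias1, an inhibitor of Stat signalling, was higher by 0.56 (adjusted p = 0.00321) and Ikbke, a kinase that activates Irf3, by 0.54 (0.00431; up to 0.93 under other settings). The other 5 called genes of the list, chosen after their values were seen, were Socs1, Ptpn2, Ptpn11, Stat3 and Apobec3, all lower, with log2 differences of -0.61 to -0.27. Each of these 5 lost its call under 5 to 8 other settings.

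**Figure D4:**
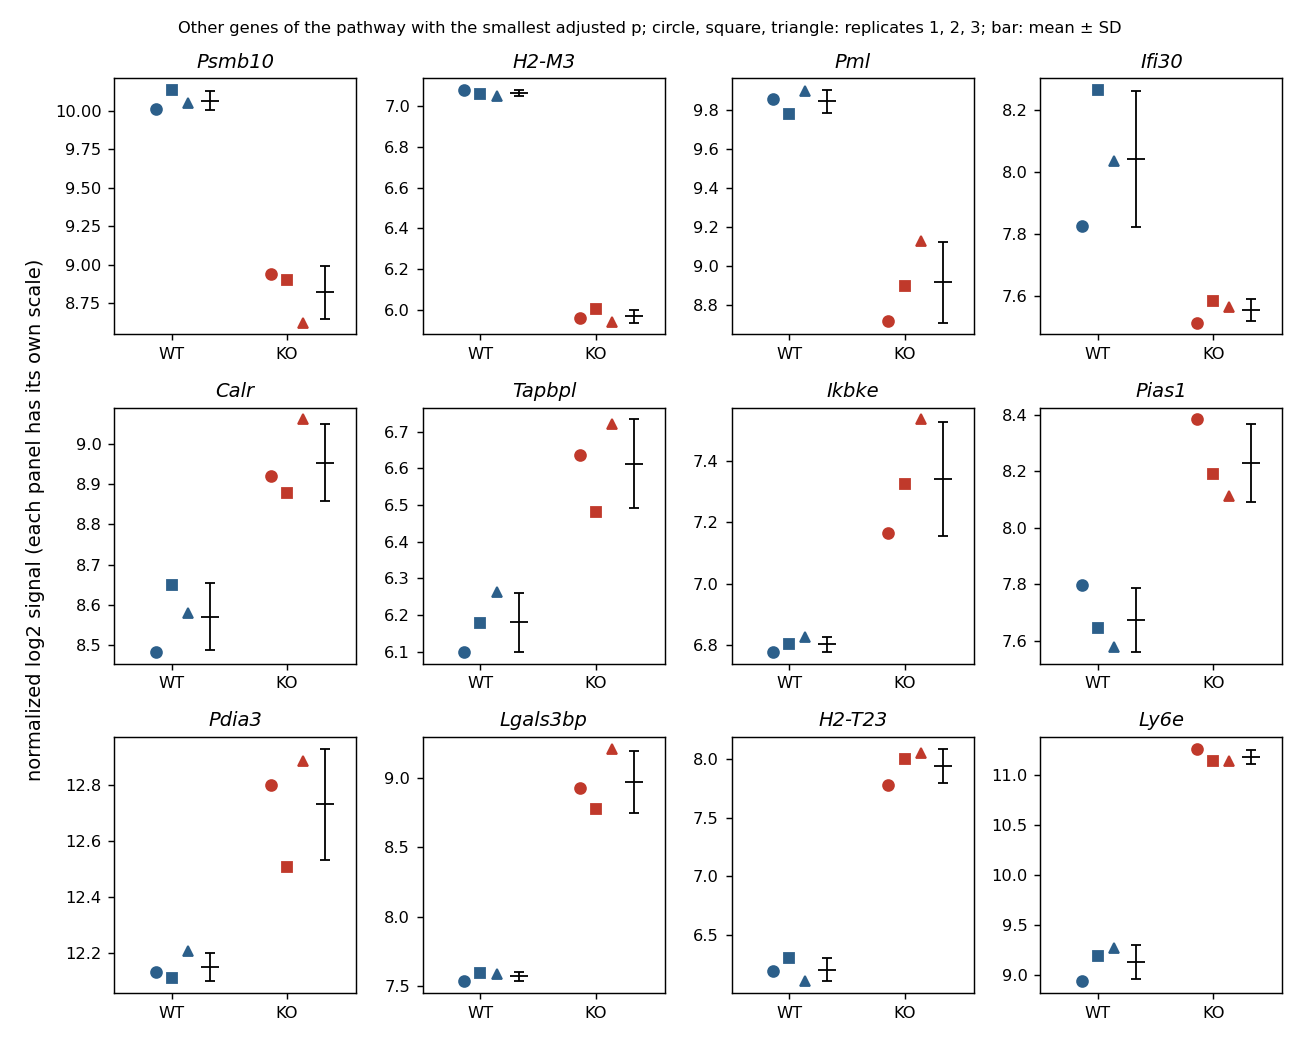
Normalized log2 signal on every array of the 12 other genes of the pathway with the smallest adjusted p; circles, squares and triangles are replicates 1, 2 and 3, bars the mean ± SD (n = 3), and each panel has its own scale. Ly6e, H2-T23 and Lgals3bp are higher in KO and H2-M3, Psmb10 and Pml lower, without overlap.

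Across 19 other processing settings, 7 of the 11 called members kept their direction and their call under every one: Irf1, Irf3, Ifitm1, Ifitm3, Ifngr1, Tyk2 and Tap2. Ifit3 lost it under 1 of 18, Ifngr2 under 2, Ifitm2 under 8 and Jak1 under 15 of 19. Of the 24 members without a call, Adar alone gained one.

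**Figure D5:**
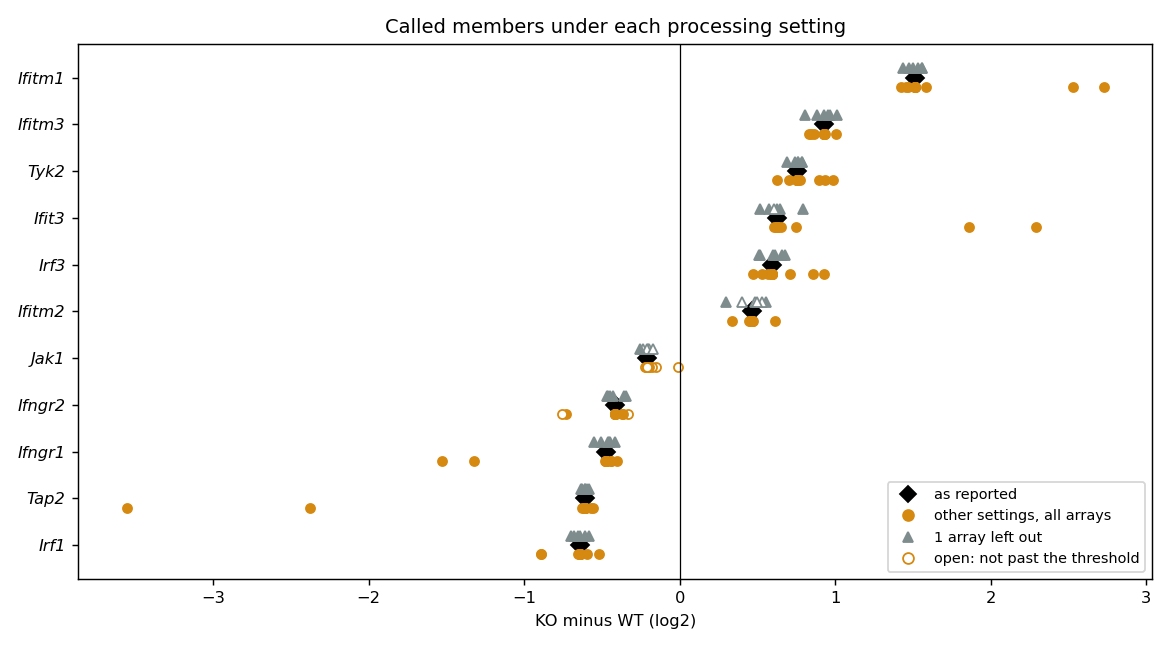
Log2 difference between KO and WT of the 11 called members as reported (diamonds), under other settings with all arrays (circles) and with 1 array left out (triangles); open symbols did not pass the threshold. All values keep their sign, and the widest ranges over the settings with all arrays are those of Tap2 (-3.55 to -0.56), Ifit3 (0.61 to 2.29), Ifitm1 (1.42 to 2.73) and Ifngr1 (-1.53 to -0.40).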

How the data were processed

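RNA of 3 KO and 3 WT cultures was measured on 6 arrays. Per the labels, a Cy5 culture and a Cy3 pool of its genotype were hybridised, but each file holds 1 channel, taken as the culture's. The deposited scanner files give mean spot and local background intensities. The authors' normalized intensities are scaled per array, and limma was used per the submitters' processing notes.

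Background was corrected with normexp (offset 50) in limma 3.58.1 (R 4.3.3). Masked, contaminated or irregular spots were left out (0 of any member), controls were dropped, and log2 values of 19801 gene probes were quantile normalized. KO and WT were compared with lmFit and eBayes for 19604 probes with at least 3 values, two-sided, with Benjamini-Hochberg adjustment. The procedure was tested on simulated data with the same noise for every probe and changes in bright probes only. Its behaviour for changes in dim probes and under unequal noise was therefore not tested. "At least N-fold", for a group near background on all its arrays, sets the brighter mean against the lowest signal above background.

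Probes were named through RefSeq accessions (10712) or a unique synonym (101) in a GRCm38.p6 table, which also gave chromosomes and neighbours, and 8988 stayed unnamed. The build of the array's design was not given in the sources used here. Members and lists were chosen with earlier results of these data known. By rule, array values are given for called members, those without overlap and above background throughout a group, and up to 2 bright ones per role, and names for the 12 other pathway genes with the smallest adjusted p and up to 2 markers per list. Array values of Stat2, Isg15, Ifit1 and Ifit2, the further markers, the further pathway genes and the neighbouring genes were chosen after values were seen. The result of 1 gene of the other pathway genes is left out. Alternatives in background correction, scaling, spot summary, filters, moderation, weights, blocks and arrays kept are given at the end.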

Additional observations from a re-analysis of the deposited data

How the results depend on the processing

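All 11 called members kept their direction under every setting run, and so did Mapk14 with its call. Counts of lower genes moved most. Members lower in KO, 5 as reported, were 3 under median scaling and with the authors' normalized values, and other pathway genes lower, 9 as reported, were 4 under each of these and with offset 0. Over all probes, 2047 higher and 2374 lower as reported, 1345 were lower under median scaling, 1331 with offset 0 and 1203 with the authors' normalized values, which also gave 1309 higher. The share of all calls that was higher in KO was 46.3% as reported and 64.1% under median scaling. That scaling moved the median difference of all probes to -0.03 from -0.01. Leaving out 1 array at a time gave 4 to 6 members higher and 4 to 5 lower, 8 to 12 other pathway genes higher and 4 to 11 lower (5 without WT replicate 1 and 4 without WT replicate 3), and 1522 to 2663 probes higher and 1664 to 3151 lower. Mapk14 ran from -0.98 to -0.87 in these fits and lay at -2.24 with offset 0 and -2.53 with the authors' normalized values. Deviations of same-numbered KO and WT samples correlated at 0.24, -0.12 and 0.10 by titles. By the names inside the files they correlated at 0.24, 0.20 and -0.087, so under neither did every pair deviate together. The titles link these samples by number alone. With 3 arrays a group, such correlations cannot show whether a pair shared a batch. With the replicate number as a block, 6 members were higher and 4 lower, and Jak1 missed the threshold (adjusted p = 0.099). With the numbers inside the files as a block, an alternative added after seeing the data, the counts were also 6 and 4. No slide or scan held more than 1 array, so a block by slide was not run. Filters on dim probes left 15 or 18 members to test. Groups of 3 arrays leave small differences undetectable, the more so near background, where 17 members lay.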
